A study of Mus musculus with 12 samples.

Results

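The striatum of mice that received a control antisense oligonucleotide (control ASO) was compared with that of mice that received PBS, which asks what an injected oligonucleotide with no target changes by itself. The comparison takes 8 of the 12 arrays of the series, chosen by their treatment label: 4 from control ASO mice and 4 from PBS mice. The other 4 arrays, from mice given an ASO against wig-1 (gene Zmat3), entered the same fit and are shown only where control ASO differs from them. All mice were BACHD males of 5 months, which carry a transgene for full-length mutant human huntingtin on the FVB background, so that no group lacks the transgene. Each received a single injection of wig-1 ASO, control ASO or PBS into the striatum, as the study's methods state. The labels themselves give the tissue only as brain, the control as a negative control ASO and PBS as no treatment. The control ASO has a phosphorothioate backbone with 2′-O-methoxyethyl ends around a stretch of deoxy bases, the same chemistry as the wig-1 ASO, and is complementary to no known gene. The time between injection and dissection is not given in the sources used here for these arrays. Each array carried RNA from 1 mouse, and mice are named by the replicate number 1 to 4 of the labels.

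An ASO of this design pairs with its target RNA, and the nuclear and mitochondrial enzyme RNase H1 cuts the RNA strand of the duplex. A phosphorothioate backbone also binds many proteins whatever its base order, which is how such molecules enter cells: they are taken up by endocytosis and gather in endosomes and lysosomes, and only a small share reaches the cytosol and nucleus. In brain, neurons, astrocytes and microglia all take them up. Microglia and incoming macrophages are the phagocytes that clear debris after a needle injury, and on doing so they turn on a known set of genes for lipid handling, lysosomal digestion and complement. Immediate early genes are switched on in neurons within minutes of calcium or cAMP signals.

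Signals are given as log2 of the array signal, on which 1 unit is a doubling, and differences are control ASO minus PBS. A probe was kept when it was detected on at least 4 of the 12 arrays, which left 17188 probes, and a gene was read from its brightest kept probe, for 10031 genes in all. Between 15912 and 16614 probes were detected on the control ASO arrays and between 16064 and 16518 on the PBS arrays. With limma, 0 of 17188 probes (0.0%) differed at an adjusted p under 0.05, and the smallest adjusted p was 0.273. A SAM test rebuilt here called 0 as well, where the study's methods name the siggenes package and give no formula. "Higher" and "lower" below therefore describe the measured values of these mice, and no gene is said to have changed. At an unadjusted p under 0.05 there were 1175 probes (6.84%), and over genes 314 were higher (3.13%) and 317 lower (3.16%). The 3 groups share a single estimate of spread, so SEs and p-values also take in the spread among wig-1 ASO mice. With only the 8 control ASO and PBS arrays in the fit, 1315 probes (7.65%) were at an unadjusted p under 0.05 and 0 at an adjusted p under 0.05. Counts by gene list below come from the fit of 3 groups. The 4 control ASO values lay wholly above the 4 PBS values for 250 genes (2.49%) and wholly below for 253 (2.52%), the 2 outcomes to which the exact two-sided permutation test gives its smallest p, 0.029. These shares are the background against which the counts below are to be read. Control ASO mice lay about as far from the PBS mean as each PBS mouse did from the mean of the others. The number of probes 1 log2 unit or more away was 623, 537, 764 and 551 in control ASO mice 1 to 4, against 590, 728, 836 and 1282 in PBS mice 1 to 4, each of which was set against the other 3. The SD over probes of the difference between any 2 arrays was 0.46 to 0.62 between the groups, 0.43 to 0.50 within control ASO and 0.48 to 0.66 within PBS.

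The 95% confidence interval of a probe reached a median of 0.37 log2 units either side of its difference, and for 8635 of the 10031 genes (86.1%) the whole interval lay inside 1 log2 unit either way. A difference of 1 or more was measured for 74 genes and of −1 or less for 11, whereas the median over all genes was 0.01 and 51.5% of genes were above 0. The filter counts all 12 arrays, so genes undetected with PBS could be kept through ASO arrays where they were brighter. The 74 include genes that no PBS array detected, such as Mmp12, and the 74 and 11 are read with that limit. The gene lists below hold such genes too, Mmp12 and Fcgr4 among them, and their counts and medians carry the same limit. Among probes detected on all 12 arrays, 407 were higher and 541 lower at an unadjusted p under 0.05. The targeted gene of the other ASO, Zmat3, measured 8.48, 8.47, 8.53 and 8.31 with control ASO, against 8.57, 8.60, 8.37 and 8.44 with PBS. The groups overlapped, with a difference of −0.05 (SE 0.18, adjusted p = 0.969) and a 95% confidence interval of −0.43 to 0.34, whereas the 4 wig-1 ASO mice had 6.89, 6.63, 6.77 and 5.95. The mouse gene Htt, at or near the detection limit on this array, measured 4.02, 4.13, 2.24 and 4.0 with control ASO, against 3.47, 4.44, 1.25 and 3.28 with PBS, a range too wide to read a difference from.

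**Figure D1:**
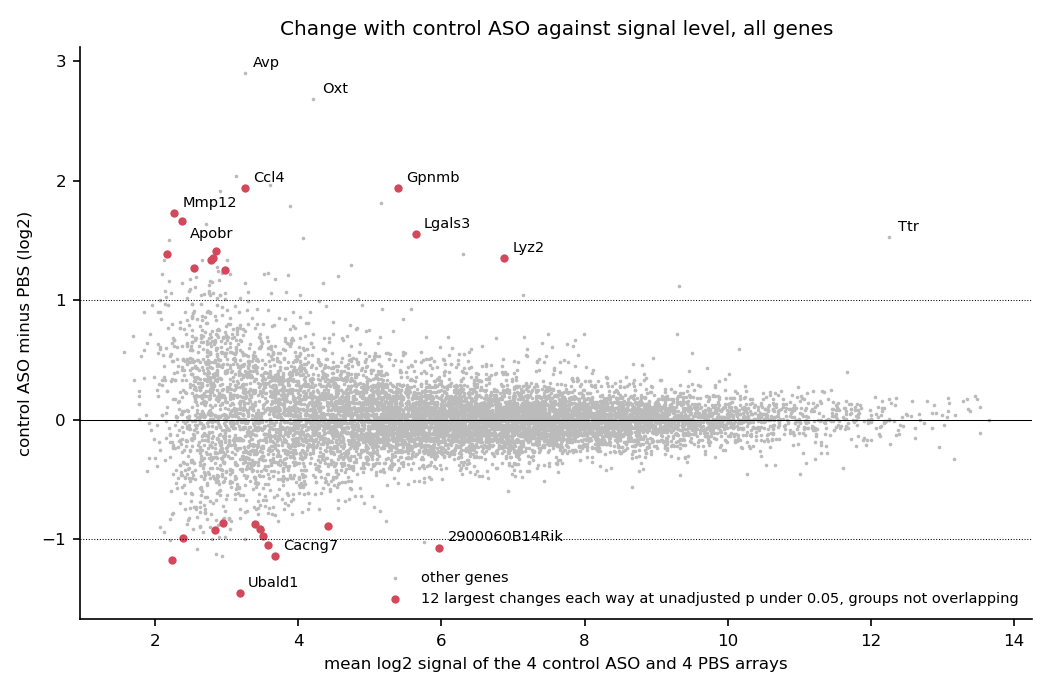
Control ASO minus PBS (log2, vertical axis) against the mean log2 signal over both groups (horizontal axis) for each of 10031 genes. Red points are the 12 largest differences each way among genes at an unadjusted p under 0.05 whose groups do not overlap (150 higher and 159 lower in all), and dotted lines mark 1 log2 unit. More genes lie beyond the upper line (74) than beyond the lower one (11), and 0 genes pass an adjusted p under 0.05. The filter counts all 12 arrays, so genes undetected with PBS could be kept through ASO arrays where they were brighter.

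Markers of tissue beside the striatum differed between mice, and these levels come before single genes. Striatal markers themselves were present throughout. Drd1, Drd2, Penk and Gnal, markers of the medium spiny neurons that make up most of the striatum, were detected on all 8 arrays, and Gng7, the G-protein subunit of their dopamine and adenosine signalling, measured 10.60, 10.92, 10.70 and 10.92 with control ASO, against 11.19, 11.22, 11.22 and 11.30 with PBS. Markers of choroid plexus, which lies in the ventricle next to the striatum, were uneven. Transthyretin (Ttr), its main secreted protein, measured 13.66, 11.64, 13.24 and 13.57 with control ASO, against 9.96, 13.33, 10.11 and 12.59 with PBS. It was high in control ASO mice 1, 3 and 4 and in PBS mice 2 and 4. All 10 measured markers of choroid plexus and ependyma of the 14 listed averaged higher with control ASO, with a median of 1.36, and 0 of them reached an unadjusted p under 0.05. The mean deviation of these 10 genes from the PBS mean was 1.97, −0.57, 2.03 and 1.41 in control ASO mice, against −0.80, 1.06, −0.81 and 0.55 in PBS mice. Hypothalamic neuropeptides were high in a pair of control ASO mice. Vasopressin (Avp) measured 6.67, 3.12, 6.35 and 2.69 with control ASO, against 1.48, 2.60, 1.07 and 2.07 with PBS, and no PBS array detected it. That is at least 3.58-fold higher with control ASO, with undetected PBS values set to the dimmest signal that the same array detected, and the adjusted p was 0.73. Oxytocin (Oxt), chosen after its values were seen, measured 8.29, 3.42, 7.10 and 3.37 with control ASO, against 3.03, 3.83, 2.37 and 2.24 with PBS. Control ASO mice 1 and 3 stood far above the other 6 mice for both. Slc17a6, the glutamate transporter of thalamic and hypothalamic neurons, measured 8.64, 7.94, 8.38 and 7.98 with control ASO, against 7.88, 7.91, 7.46 and 7.93 with PBS. The 16 measured markers of thalamus, hypothalamus and septum of the 20 listed had a mean deviation of 1.12, 0.14, 0.90 and −0.14 in control ASO mice, against −0.02, 0.26, −0.07 and −0.16 in PBS mice. Avp and Oxt are on this list and weigh heavily in its mean in control ASO mice 1 and 3. Of the 16, 11 were above 0, with a median of 0.41. At an unadjusted p under 0.05, 1 was higher, Rora (background 3.13%), and 1 lower, Prkcd (background 3.16%), both given below. In bulk tissue, fewer cells of a type and less RNA per cell cannot be told apart, and the share of neighbouring tissue is known here only from these markers. Counts below are for that reason also given with these marker levels as a covariate, and with control ASO mice 2 and 4 alone, settings chosen after seeing the data.

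**Figure D2:**
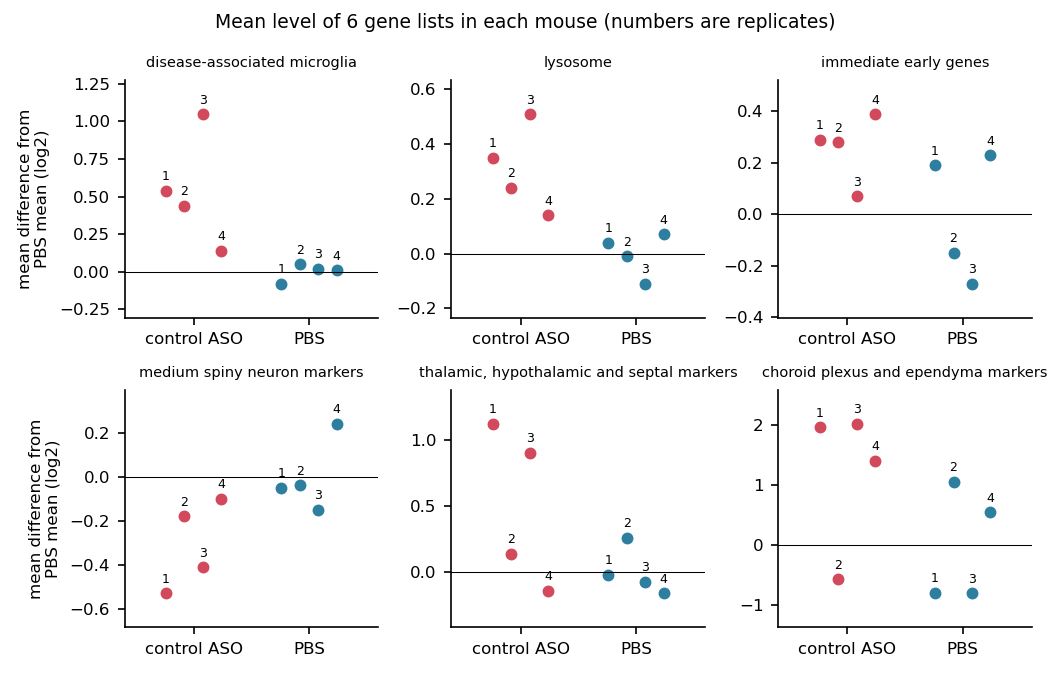
Mean deviation from the PBS mean (log2, vertical axis) of the measured genes of 6 lists in each mouse, control ASO mice to the left of PBS mice. Each point is 1 mouse with its replicate number, and the scale differs between lists. The choroid plexus list ranges over −0.81 to 2.03 and differs within both groups. The disease-associated microglia and lysosome lists are higher in each control ASO mouse than in any PBS mouse. The same holds for lists not shown, housekeeping genes among them, a list that shares a gene with each of these.

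The genes that separated the groups on the higher side included several known from phagocytes, and many lay near the detection limit in PBS mice. The 12 largest fitted differences among genes at an unadjusted p under 0.05 whose groups do not overlap were Ccl4, Gpnmb, Mmp12, Apobr, Lgals3, Wfdc17, Ly9, Lyz2, Csrp1, Pgap3, Crtc2 and Ms4a7. For 6 of them (Mmp12, Apobr, Ly9, Csrp1, Pgap3 and Crtc2) 0 PBS arrays detected the gene, so their place in this order rests on values under the detection limit. Ccl4, a chemokine that draws monocytes and T cells, measured 4.13, 4.31, 4.78 and 3.67 with control ASO, against 2.46, 1.41, 1.79 and 3.45 with PBS. All 4 control ASO arrays detected it and 1 of the PBS arrays did, and its fitted difference, 3 of whose PBS values were under the detection limit, was 1.94 (SE 0.47, adjusted p = 0.525). Gpnmb, a transmembrane glycoprotein of lipid-laden phagocytes, measured 6.14, 6.71, 7.33 and 5.25 with control ASO, against 4.64, 5.22, 4.67 and 3.13 with PBS. The lowest control ASO mouse, number 4, was almost level with the highest PBS mouse, and the difference was 1.94 (SE 0.89, adjusted p = 0.73), or 3.84-fold. Lgals3, a galectin that marks damaged lysosomes and phagocytes, measured 6.62, 6.52, 7.07 and 5.46 with control ASO, against 4.96, 5.20, 4.42 and 4.90 with PBS, a difference of 1.55 (SE 0.62, adjusted p = 0.713). The order of the mice was alike in these genes: control ASO mouse 3 was highest and mouse 4 lowest in Ccl4, Gpnmb and Lgals3.

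Lyz2, the lysozyme of myeloid cells, measured 7.29, 7.74, 8.36 and 6.83 with control ASO, against 6.18, 6.41, 6.73 and 5.50 with PBS, 2.55-fold higher with a difference of 1.35 (SE 0.59, adjusted p = 0.713). The gene of smallest p in the whole comparison was Apobr, the receptor by which macrophages take up apolipoprotein B-bearing lipoproteins. It measured 2.90, 3.43, 3.58 and 2.88 with control ASO, against 1.46, 1.99, 1.38 and 1.32 with PBS, with 3 control ASO arrays and 0 PBS arrays detecting it. Its fitted difference was 1.66 (SE 0.23, adjusted p = 0.273), and as a bound it was at least 1.26-fold higher, since the PBS values lie under the detection limit. Mmp12, the elastase of macrophages, measured 3.46, 4.03, 3.30 and 1.72 with control ASO, against 1.55, 1.40, 1.15 and 1.49 with PBS and was at least 1.2-fold higher, with 3 control ASO arrays and 0 PBS arrays detecting it. Wfdc17, a small secreted protein of activated macrophages, measured 3.57, 3.67, 3.59 and 3.38 with control ASO, against 1.43, 2.45, 3.25 and 1.43 with PBS, a difference of 1.41 (SE 0.35, adjusted p = 0.525). Its control ASO values lay within a narrow band just over the detection limit, while 1 PBS mouse, number 3, reached nearly the same level. Ms4a7, a marker of macrophages at the borders of the brain, measured 3.49, 3.60, 3.53 and 3.76 with control ASO, against 1.54, 1.48, 3.25 and 3.11 with PBS. It was detected on 4 control ASO and 2 PBS arrays, with a difference of 1.25 (SE 0.56, adjusted p = 0.727). Ly9, a receptor of lymphocytes and on the lymphocyte list, was detected on 2 control ASO arrays and 0 PBS arrays at a level that allows no fold. The other 3 have broader roles. Csrp1, a LIM protein of smooth muscle and astrocytes, was at least 1.53-fold higher, Pgap3, which remodels GPI anchors, at least 1.5-fold and Crtc2, a coactivator of CREB, at least 1.24-fold, with 0 PBS arrays detecting any of them.

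The largest differences on the lower side were smaller and belonged to no one family. The 12 by the same rule were Ubald1, 3300002I08Rik, Cacng7, 2900060B14Rik, Htr1f, Sash1, 8430429K09Rik, Cox4i2, Pde1c, Pym1, Tbc1d22b and Gpr183. Ubald1, of little known function, measured 2.59, 2.86, 1.5 and 2.87 with control ASO, against 4.46, 3.59, 3.38 and 4.18 with PBS. It was detected on 1 control ASO array and 4 PBS arrays, so its fitted difference of −1.45 (SE 0.37, adjusted p = 0.57) includes values under the detection limit. Cacng7, an auxiliary subunit of AMPA receptors, measured 1.96, 3.79, 2.74 and 3.90 with control ASO, against 4.78, 4.0, 3.96 and 4.21 with PBS, and control ASO mice 1 and 3 made most of the difference of −1.14 (SE 0.44, adjusted p = 0.712). Most of these genes lay near the detection limit, whereas 2900060B14Rik was brighter. The unnamed transcript 2900060B14Rik measured 5.56, 5.36, 5.20 and 5.63 with control ASO, against 6.68, 6.03, 6.06 and 7.23 with PBS, a difference of −1.07 (SE 0.33, adjusted p = 0.665). Pym1, which recycles exon junction complexes from translated mRNAs, measured 3.88, 4.48, 3.52 and 3.97 with control ASO, against 4.84, 4.67, 4.86 and 5.04 with PBS, a difference of −0.89 (SE 0.19, adjusted p = 0.525) or 1.85-fold lower with control ASO. The lower of its control ASO values lay near the detection limit. Gpr183, the oxysterol receptor that guides immune cells, measured 2.47, 2.10, 3.0 and 2.49 with control ASO, against 3.61, 3.21, 3.16 and 3.54 with PBS. It is also expressed by myeloid cells and was lower where other myeloid genes were higher. Cox4i2, an isoform of a cytochrome oxidase subunit found in brain pericytes, was detected on 0 control ASO and 4 PBS arrays and was at least 1.32-fold lower. The serotonin receptor gene Htr1f measured 3.57, 3.65, 1.51 and 3.48 with control ASO, against 4.21, 4.0, 4.27 and 3.91 with PBS, with control ASO mouse 3 alone under the detection limit.

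Across the list of disease-associated microglia, the genes that microglia turn on around plaques and dying neurons, 16 of the 21 listed were measured. Of these, 13 were above 0, 5 were higher at an unadjusted p under 0.05 (background 3.13%) and 0 lower, and the median difference was 0.36 against 0.01 over all genes. The 5 were Lgals3, Gpnmb, Lyz2, Cd9 and Ctsd, and in all 5 the groups did not overlap. Cd9, a tetraspanin of the plasma membrane, measured 8.14, 8.0, 8.29 and 7.94 with control ASO, against 7.42, 7.76, 7.88 and 7.54 with PBS, a difference of 0.45 (SE 0.18, adjusted p = 0.713). The mean deviation over the 16 genes was 0.54, 0.44, 1.05 and 0.14 in control ASO mice, against −0.08, 0.05, 0.02 and 0.01 in PBS mice. Each control ASO mouse was thus above each PBS mouse, with mouse 3 highest and mouse 4 close to the PBS range. Such separation was not particular to this list. It held for the means of the lysosome, complement, matrix and reactive astrocyte lists. Housekeeping genes showed it too, at 0.16, 0.09, 0.12 and 0.08 in control ASO mice against 0.0, −0.02, −0.01 and 0.03 in PBS mice. These lists are not separate. The housekeeping list shares B2m with the disease-associated microglia list and Gusb with the lysosome list. Ctsd is on both the microglia and lysosome lists, and Timp1 on both the matrix and reactive astrocyte lists. In the complement list 8 of 9 measured genes were above 0, and 2 were higher at an unadjusted p under 0.05 (background 3.13%). The 3 chains of C1q, which open the classical pathway and are made in brain by microglia, had similar differences. C1qa measured 6.62, 6.15, 6.89 and 6.13 with control ASO, against 5.58, 5.90, 5.97 and 5.94 with PBS, a difference of 0.60 (SE 0.25, adjusted p = 0.713). C1qb measured 8.06, 8.02, 8.73 and 7.44 with control ASO, against 7.59, 7.14, 7.54 and 7.44 with PBS, a difference of 0.63 (SE 0.29, adjusted p = 0.73), with PBS mice 1 and 3 above control ASO mouse 4. C1qc measured 7.27, 7.35, 8.19 and 7.21 with control ASO, against 6.89, 6.55, 6.92 and 6.89 with PBS, a difference of 0.69 (SE 0.28, adjusted p = 0.713).

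**Figure D3:**
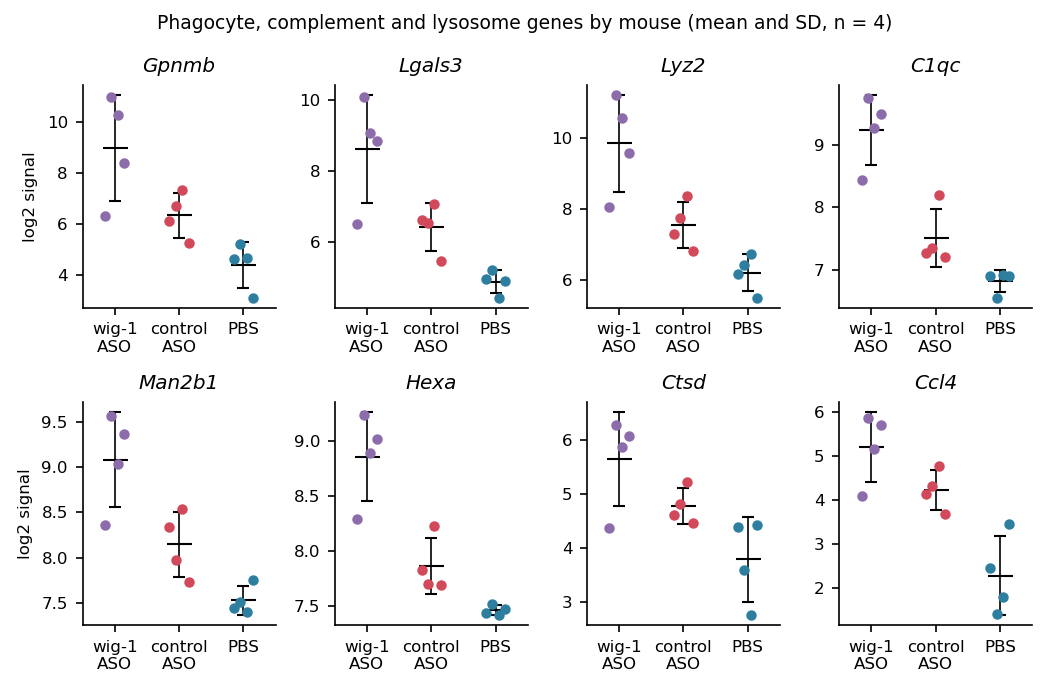
Log2 signal (vertical axis) of 8 phagocyte, complement and lysosomal genes in each mouse (point) with wig-1 ASO, control ASO and PBS, with the group mean and SD (n = 4). In Gpnmb, Lgals3 and Lyz2 the 4 control ASO mice lie above the 4 PBS mice, with control ASO mouse 3 highest.

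Markers of resident microglia had smaller differences. Of 21 microglia markers 16 were measured, and 0 were higher or lower at an unadjusted p under 0.05, with 10 above 0 and a median of 0.11. P2ry12, the ADP receptor of resting microglia, measured 8.39, 8.52, 8.43 and 8.35 with control ASO, against 8.59, 8.50, 8.52 and 8.59 with PBS, with a 95% confidence interval for the difference of −0.31 to 0.06. For Tmem119, another marker of resident microglia, the interval was −0.32 to 0.40, for Csf1r, the growth factor receptor on which microglia depend, −0.35 to 0.50, and for Cx3cr1, the fractalkine receptor, −0.27 to 0.73. Tyrobp, the signalling adaptor of Trem2, was at the higher end of the list. It measured 6.98, 6.71, 7.41 and 6.43 with control ASO, against 6.15, 6.16, 6.39 and 6.36 with PBS, a difference of 0.62 (SE 0.30, adjusted p = 0.732) with groups that did not overlap. Markers of border macrophages and of myeloid cells that enter from blood were mixed. Of 11 measured genes, 4 were higher at an unadjusted p under 0.05 (Lyz1, Lyz2, Wfdc17 and Ms4a7, background 3.13%) and 1 was lower, S100a9 (background 3.16%). Lyz2 is also counted in the disease-associated microglia list. The 4 became 1 without PBS mouse 1 or 2 or control ASO mouse 1, 2 or 3, and 2 without PBS mouse 4. Lyz1, the near copy of Lyz2, measured 9.79, 10.09, 10.50 and 9.13 with control ASO, against 8.59, 8.84, 9.32 and 8.27 with PBS, and the array probes of such close copies can share target RNA. S100a9, the calprotectin chain of neutrophils and fresh monocytes, was detected on 0 control ASO and 2 PBS arrays. Fcgr4, an activating IgG receptor, measured 2.04, 2.61, 3.48 and 2.72 with control ASO, against 1.39, 1.22, 1.48 and 1.89 with PBS with 1 control ASO array and 0 PBS arrays detecting it. It was thus kept through wig-1 ASO arrays. Its list, Fc receptors and phagocyte oxidase, had 7 of 8 measured genes above 0, where 51.5% of all genes were. The list median of 0.47 became 0.23 without PBS mouse 2, and it includes such values under the detection limit. Plin2, the coat protein of lipid droplets, measured 3.16, 3.06, 4.49 and 3.48 with control ASO, against 2.21, 2.62, 2.69 and 1.75 with PBS and was at least 1.6-fold higher, detected on 4 control ASO arrays and 0 PBS arrays.

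Lysosomal genes were higher throughout in their means. All 22 measured genes of the 30 listed were above 0, where 51.5% of all genes were, with a median of 0.24. Of these 22, 2 were higher at an unadjusted p under 0.05 (background 3.13%), Man2b1 and Ctsd, and in 5 the groups did not overlap (background 2.49%), namely Ctsd, Ctsz, Hexa, Naglu and Lgmn. Ctsd is also counted in the disease-associated microglia list. Genes of 1 tissue compartment vary together between samples, so the 22 are not 22 separate observations. Man2b1, the lysosomal alpha-mannosidase, measured 8.34, 7.98, 8.54 and 7.73 with control ASO, against 7.45, 7.51, 7.40 and 7.76 with PBS, a difference of 0.62 (SE 0.25, adjusted p = 0.713), with PBS mouse 4 just above control ASO mouse 4. Ctsd, the main aspartic protease of lysosomes, measured 4.62, 4.82, 5.23 and 4.47 with control ASO, against 4.39, 3.60, 2.76 and 4.43 with PBS, a difference of 0.99 (SE 0.45, adjusted p = 0.728). Most of the spread was among PBS mice, where numbers 2 and 3 were low, number 3 near the detection limit. Hexa, which digests gangliosides, measured 7.83, 7.70, 8.23 and 7.69 with control ASO, against 7.44, 7.52, 7.42 and 7.47 with PBS, a difference of 0.40 (SE 0.19, adjusted p = 0.73). Naglu, which digests heparan sulfate, measured 5.21, 4.92, 5.76 and 5.10 with control ASO, against 4.83, 4.76, 4.43 and 4.87 with PBS, a difference of 0.53 (SE 0.26, adjusted p = 0.743). Ctsz, a carboxypeptidase of macrophages, measured 7.76, 7.44, 7.77 and 7.02 with control ASO, against 6.95, 6.98, 6.87 and 6.81 with PBS, with control ASO mouse 4 near the PBS mice. Lgmn, the asparaginyl endopeptidase, measured 8.17, 8.15, 8.29 and 8.28 with control ASO, against 8.02, 7.98, 8.14 and 7.47 with PBS. Lamp1, the main membrane glycoprotein of the lysosome, measured 9.68, 9.67, 9.93 and 9.56 with control ASO, against 9.45, 9.50, 9.41 and 9.76 with PBS, with a 95% confidence interval for the difference of −0.11 to 0.46. Ctsz, Lgmn and Lamp1 were chosen after their values were seen. The mean deviation over the 22 genes was 0.35, 0.24, 0.51 and 0.14 in control ASO mice, against 0.04, −0.01, −0.11 and 0.07 in PBS mice.

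Many lysosomal genes carry the E-box CACGTG near their start, the letters read by the transcription factors TFEB and TFE3. In the RefSeq promoter windows of build GRCm38.p6, which run 250 bases before to 50 after the start, this word stood in 7 of the 19 lysosomal genes that have a window (36.8%) and in 2187 of all 27025 genes with one (8.09%). The 7 were Ctsa, Ctsd, Mcoln1, Lamp1, Atp6v0d1, Naglu and Lgmn. Man2b1, Hexa and Ctsz, described above, were not among them. It is its own reverse complement, so both strands are searched at once. Shown are 30 bases around the word, in capitals, from 3 of the genes described above, on the strand of the gene.
Ctsd, chr7:142387908-142387937, minus strand: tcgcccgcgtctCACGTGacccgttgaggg
Naglu, chr11:101070009-101070038, plus strand: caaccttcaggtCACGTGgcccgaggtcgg
Lamp1, chr8:13159121-13159150, plus strand: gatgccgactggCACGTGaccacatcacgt
The word begins 98 bases before the start in Ctsd, 73 before it in Naglu and 28 before it in Lamp1. A match describes the letters only.

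With the marker level of thalamus, hypothalamus and septum as a covariate, or that of choroid plexus, or with control ASO mice 2 and 4 alone, most counts of phagocyte and lysosomal genes at an unadjusted p under 0.05 became 0. For disease-associated microglia 0 of 16 remained under each of the 3 settings, and the median of 0.36 became 0.21, 0.23 and 0.15. For the lysosome 0 of 22 remained under each, with 20, 19 and 18 genes still above 0. Border macrophage and recruited myeloid markers had 1 gene higher under each setting in place of 4, and their median of 0.20 became 0.17 and 0.01 with the covariates and 0.60 with mice 2 and 4 alone. Each covariate or left-out mouse also costs degrees of freedom. Single mice also decided these counts. The 5 disease-associated microglia genes became 0 without control ASO mouse 1 or mouse 3, 1 without control ASO mouse 2, and 2, 3, 3 and 2 without PBS mice 1 to 4, and the 2 lysosomal genes became 0 without control ASO mouse 1 or 3 or PBS mouse 2 or 3 and 1 without control ASO mouse 4 or PBS mouse 1. The part of neighbouring tissue in these differences was not tested beyond these values.

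Cells sense foreign nucleic acid through Toll-like receptors in endosomes and through sensors in the cytosol, both of which lead to interferon. Of 15 measured sensing genes of the 26 listed, 3 were higher at an unadjusted p under 0.05 (background 3.13%) and 0 lower, with a median of 0.08. The count of 3 became 0 without PBS mouse 2 or 3, 1 without control ASO mouse 1, 3 or 4, and 5 without PBS mouse 4. Myd88, the adaptor of most Toll-like receptors, measured 5.45, 5.11, 5.42 and 5.41 with control ASO, against 4.96, 4.82, 4.42 and 5.05 with PBS, a difference of 0.53 (SE 0.21, adjusted p = 0.713). Unc93b1, which carries the nucleic acid-sensing Toll-like receptors to endosomes, measured 5.16, 5.51, 5.92 and 5.36 with control ASO, against 5.0, 4.24, 4.70 and 5.24 with PBS, a difference of 0.69 (SE 0.29, adjusted p = 0.713), with PBS mouse 4 inside the control ASO range. Eif2ak2, the kinase PKR that binds double-stranded RNA, measured 5.46, 5.16, 5.19 and 5.44 with control ASO, against 5.07, 4.75, 4.23 and 5.15 with PBS, a difference of 0.51 (SE 0.22, adjusted p = 0.713). All 3 were modest, and Irf3, the transcription factor downstream of the cytosolic sensors, had a 95% confidence interval of −0.06 to 0.46. Of 21 measured interferon-stimulated genes of the 31 listed, 17 were above 0 with a median of 0.23. Gbp2, Igtp and Ifitm2, 3 in all, were higher at an unadjusted p under 0.05 (background 3.13%). The count of 3 became 1 without PBS mouse 4 or control ASO mouse 4. Gbp2, a guanylate-binding protein that attacks vacuoles, measured 6.08, 5.35, 5.58 and 5.20 with control ASO, against 5.0, 4.84, 5.09 and 5.08 with PBS, a difference of 0.55 (SE 0.18, adjusted p = 0.681). Igtp, an immunity-related GTPase, measured 4.07, 3.44, 3.71 and 3.89 with control ASO, against 3.12, 3.69, 2.62 and 2.28 with PBS, with 2 of the PBS arrays under the detection limit and a difference of 0.85 (SE 0.33, adjusted p = 0.713). Ifitm2, which blocks viral entry at endosomal membranes, measured 6.93, 6.92, 7.20 and 7.08 with control ASO, against 6.63, 6.35, 6.87 and 6.69 with PBS, a difference of 0.40 (SE 0.17, adjusted p = 0.713). Rsad2 (viperin), a gene that type I interferon induces strongly in many cells, measured 3.74, 3.72, 3.74 and 3.60 with control ASO, against 3.79, 3.24, 1.45 and 3.14 with PBS, and 1 low PBS mouse, number 3, set its difference of 0.80 (SE 0.40, adjusted p = 0.747). The mean deviation over the 21 genes was 0.39, 0.18, 0.40 and 0.11 in control ASO mice, against 0.10, −0.06, −0.08 and 0.04 in PBS mice. With control ASO mice 2 and 4 alone 0 of the sensing genes and 0 of the interferon-stimulated genes were higher at an unadjusted p under 0.05, and with either marker level as a covariate 0 and 1 were.

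Interferon-stimulated genes carry response elements read by STAT and IRF proteins. The word GAAA followed by 2 bases of any kind and GAAA again, searched on both strands, stood in the promoter windows of 11 of the 19 interferon-stimulated genes that have one (57.9%) and of 1079 of 27025 genes (3.99%). It is shown in capitals in the 3 genes just described, and reads TTTC, 2 bases and TTTC where it lies on the other strand.
Gbp2, chr3:142620594-142620623, plus strand: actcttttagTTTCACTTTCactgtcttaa
Igtp, chr11:58199512-58199541, plus strand: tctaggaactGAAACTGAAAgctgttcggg
Ifitm2, chr7:140955988-140956017, minus strand: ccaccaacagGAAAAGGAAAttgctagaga
The windows are those of RefSeq on GRCm38.p6, and a match is a description of the letters only. The same word stood in 3 of 14 MHC class I genes (21.4%). Words searched for other lists were rarer. The PU.1 core stood in 0 of 13 disease-associated microglia genes, 1 of 11 microglia markers and 2 of 10 border macrophage and recruited myeloid genes, against 3.69% of all genes. The cAMP response element stood in 1 of 14 immediate early genes, against 2.03% of all genes.

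Of the machinery that an ASO meets inside a cell, few genes differed. The 4 RNase H genes had a median of −0.04, and 0 reached an unadjusted p under 0.05. Rnaseh1, the enzyme that ASOs of this design recruit, measured 4.49, 4.45, 4.68 and 4.83 with control ASO, against 4.45, 4.51, 5.19 and 4.70 with PBS, with a 95% confidence interval for the difference of −0.45 to 0.25. For the 3 subunits of RNase H2 the interval was −0.89 to 0.05 for the catalytic Rnaseh2a, −0.32 to 0.52 for Rnaseh2b and −0.49 to 0.52 for Rnaseh2c. Of 14 measured proteins that bind phosphorothioate oligonucleotides or build paraspeckles, 1 was higher at an unadjusted p under 0.05. It was Pcbp1, a poly(C)-binding protein, which measured 9.49, 9.44, 9.55 and 9.42 with control ASO, against 9.07, 9.34, 9.15 and 9.18 with PBS, a difference of 0.29 (SE 0.10, adjusted p = 0.693). Sfpq, a paraspeckle protein, measured 4.05, 4.29, 3.60 and 4.71 with control ASO, against 2.56, 4.35, 4.51 and 2.67 with PBS, with the PBS mice split into 2 low and 2 higher. Of 14 measured genes of uptake and endosomal release, Tsg101 was higher and Egfr lower at an unadjusted p under 0.05. Tsg101, a subunit of the sorting complex ESCRT-I, measured 7.26, 7.25, 7.37 and 7.38 with control ASO, against 6.82, 7.15, 7.22 and 6.95 with PBS, a difference of 0.29 (SE 0.12, adjusted p = 0.713). Egfr, the epidermal growth factor receptor, known from cultured cells to take part in ASO trafficking, measured 5.88, 5.70, 5.53 and 5.33 with control ASO, against 6.29, 6.02, 6.04 and 6.07 with PBS, a difference of −0.50 (SE 0.17, adjusted p = 0.693). Igf2r, which carries acid hydrolases to lysosomes, and Lrp1, a scavenger receptor of many ligands, had 95% confidence intervals of −0.08 to 0.68 and −0.13 to 0.56. RNA interference genes had a median of −0.01 over 12 measured, with 0 at an unadjusted p under 0.05.

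Immediate early genes were higher with control ASO, in part of the list. Of 17 measured genes of the 21 listed, 5 were higher at an unadjusted p under 0.05 (background 3.13%) and 0 lower. In the same 5 (Fos, Nr4a2, Arc, Egr2 and Egr1) the 4 control ASO mice all lay above the 4 PBS mice (background 2.49%). The median of the list was 0.27. Fos, the AP-1 subunit, measured 7.78, 7.81, 7.46 and 7.80 with control ASO, against 7.06, 6.95, 7.01 and 7.29 with PBS, 1.55-fold higher with a difference of 0.64 (SE 0.16, adjusted p = 0.525). Arc, whose mRNA travels to active synapses, measured 9.89, 9.60, 9.47 and 9.65 with control ASO, against 9.33, 8.52, 8.59 and 9.30 with PBS, a difference of 0.72 (SE 0.27, adjusted p = 0.711). Both varied little among control ASO mice, and PBS mice 2 and 3 were lowest for Arc. Egr2, a zinc finger transcription factor, measured 4.94, 5.30, 4.68 and 5.21 with control ASO, against 4.50, 4.01, 4.13 and 4.68 with PBS, a difference of 0.70 (SE 0.27, adjusted p = 0.712). Nr4a2, an orphan nuclear receptor, measured 4.91, 4.87, 5.15 and 4.80 with control ASO, against 4.63, 4.54, 4.06 and 4.63 with PBS, a difference of 0.47 (SE 0.15, adjusted p = 0.681). Egr1, chosen after its values were seen, was among the brightest genes and measured 11.98, 11.81, 11.75 and 11.95 with control ASO, against 11.73, 11.42, 11.08 and 11.66 with PBS, a difference of 0.40 (SE 0.16, adjusted p = 0.713).

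**Figure D4:**
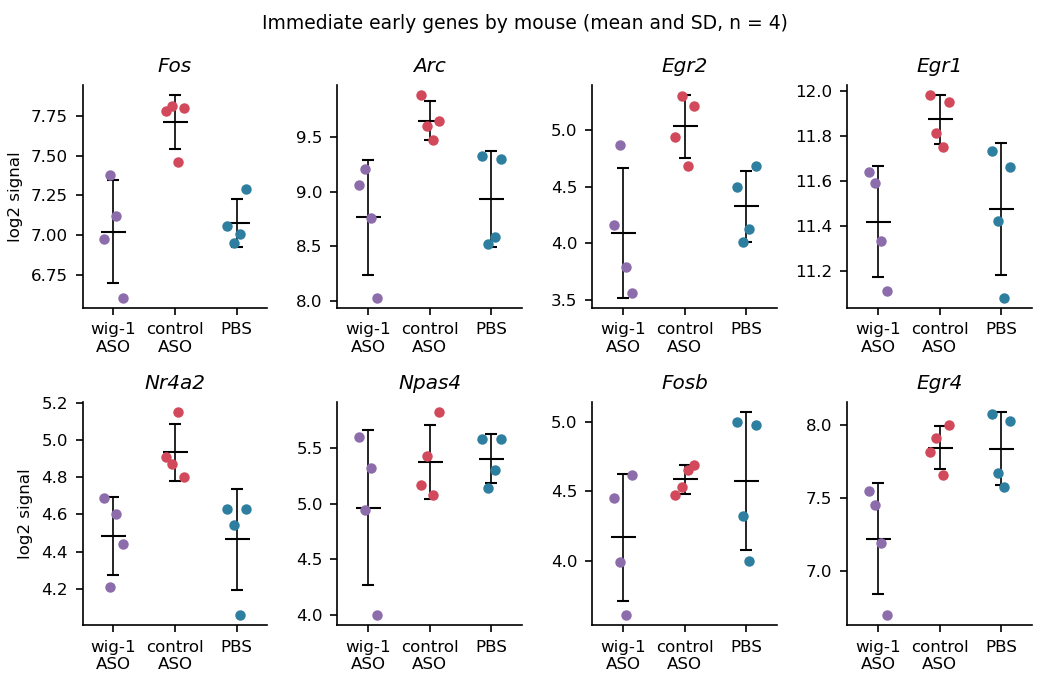
Log2 signal (vertical axis) of 8 immediate early genes in each mouse (point) with wig-1 ASO, control ASO and PBS, with the group mean and SD (n = 4). In Fos, Arc, Egr2, Nr4a2 and Egr1 the 4 control ASO mice lie above the 4 PBS mice, and in Npas4, Fosb and Egr4 the groups overlap.

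In other members of the same families the groups overlapped. Egr3 measured 9.86, 9.60, 9.47 and 9.77 with control ASO, against 9.87, 9.59, 9.65 and 9.88 with PBS, and its 95% confidence interval was −0.36 to 0.21. Egr4 had an interval of −0.40 to 0.42, Fosb one of −0.55 to 0.57, and Npas4, which neurons induce chiefly by calcium entry, one of −0.69 to 0.63. Homer1, a scaffold of metabotropic glutamate receptors, measured 9.37, 9.36, 9.17 and 9.51 with control ASO, against 9.42, 9.42, 9.52 and 9.53 with PBS. Egr3, Egr4, Fosb, Npas4 and Homer1 were chosen after their values were seen. The mean deviation over the 17 genes was 0.29, 0.28, 0.07 and 0.39 in control ASO mice, against 0.19, −0.15, −0.27 and 0.23 in PBS mice, so that PBS mice 1 and 4 lay within the control ASO range and the separation rested on single genes. The order of the mice was the reverse of that in the disease-associated microglia list at its ends: control ASO mouse 3 had the lowest mean and mouse 4 the highest. At an unadjusted p under 0.05, 3 genes of the list were counted with either marker level as a covariate and with control ASO mice 2 and 4 alone, with medians of 0.29, 0.20 and 0.23. The count was 2 without PBS mouse 2 or 3 and 3 without control ASO mouse 1 or 4.

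Markers of medium spiny neurons were lower. Of 24 measured of the 29 listed, 2 were above 0, 5 were lower at an unadjusted p under 0.05 (background 3.16%) and 0 higher, with a median of −0.34. In 7 genes the control ASO mice all lay below the PBS mice (background 2.52%). Gnal, the G-protein subunit that couples dopamine and adenosine receptors to cAMP, measured 6.58, 6.82, 6.50 and 6.61 with control ASO, against 7.47, 7.28, 7.04 and 7.11 with PBS, a difference of −0.60 (SE 0.25, adjusted p = 0.713). Drd2, the dopamine receptor of the indirect pathway, measured 7.11, 7.16, 7.16 and 7.29 with control ASO, against 7.74, 7.59, 7.36 and 8.08 with PBS, a difference of −0.51 (SE 0.22, adjusted p = 0.713) or 1.43-fold lower. Gng7, given above, differed by −0.45 (SE 0.18, adjusted p = 0.713). Rasd2 (Rhes), a striatal small G protein, measured 10.26, 10.42, 10.22 and 10.45 with control ASO, against 10.82, 10.67, 10.41 and 10.97 with PBS, a difference of −0.38 (SE 0.17, adjusted p = 0.713), and Pde1b, the calmodulin-activated phosphodiesterase of these neurons, chosen after its values were seen, measured 11.23, 11.59, 11.30 and 11.52 with control ASO, against 11.89, 11.72, 11.51 and 12.13 with PBS, a difference of −0.40 (SE 0.18, adjusted p = 0.73). In both, PBS mouse 3 was inside the control ASO range. Both output pathways had lower means. Drd1, of the direct pathway, had a difference of −0.32 and Penk, of the indirect pathway, −0.36, both with overlapping groups. The mean deviation over the 24 genes was −0.53, −0.18, −0.41 and −0.10 in control ASO mice, against −0.05, −0.04, −0.15 and 0.24 in PBS mice. It was lowest in control ASO mice 1 and 3. Among control ASO and PBS mice, that pair had the highest means of the choroid plexus list and of the thalamic, hypothalamic and septal list. On the latter list Avp, Oxt and Slc17a6 were highest in that pair, and the thalamic markers Rora and Prkcd were not. With the thalamic, hypothalamic and septal marker level as a covariate, with that of choroid plexus, and with control ASO mice 2 and 4 alone, 0 of the 24 were lower at an unadjusted p under 0.05, and the medians were −0.13, −0.20 and −0.19. The 5 also became 0 without control ASO mouse 1 or 3, 3 and 2 without control ASO mice 2 and 4, and 1 without PBS mouse 1, 2 or 4. Of 14 interneuron markers, 1 was lower at an unadjusted p under 0.05, Chat, the acetylcholine-synthesising enzyme of cholinergic interneurons, which measured 6.35, 6.10, 6.58 and 6.30 with control ASO, against 6.66, 7.22, 6.68 and 6.67 with PBS, a difference of −0.47 (SE 0.19, adjusted p = 0.713). General neuronal and synaptic genes had a median of 0.02 over 14 measured, with 0 at an unadjusted p under 0.05.

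Most vascular and glial lists had small positive medians, and oligodendrocyte precursor markers had a negative one. Of 13 measured endothelial markers, 3 were higher at an unadjusted p under 0.05 (background 3.13%), and the median was 0.14. Cldn5, the tight junction protein of the blood-brain barrier, measured 8.34, 8.26, 8.46 and 8.27 with control ASO, against 7.98, 7.78, 7.72 and 8.16 with PBS, a difference of 0.42 (SE 0.13, adjusted p = 0.665). Eng, a coreceptor for TGF-beta ligands, measured 5.92, 5.48, 5.77 and 5.58 with control ASO, against 5.41, 5.28, 4.78 and 5.30 with PBS, a difference of 0.49 (SE 0.18, adjusted p = 0.707), and Cdh5, the endothelial cadherin, measured 4.42, 4.30, 3.85 and 4.16 with control ASO, against 3.53, 2.93, 3.44 and 4.32 with PBS, with PBS mouse 4 inside the control ASO range. Kcnj8, a potassium channel of pericytes, measured 3.04, 3.05, 3.03 and 3.21 with control ASO, against 1.81, 2.66, 1.33 and 3.05 with PBS, detected on 4 control ASO arrays and 1 PBS array. Of 14 measured matrix genes, Timp1, Mmp12 and Fn1 were higher at an unadjusted p under 0.05 (background 3.13%). No PBS array detected Mmp12, so it was kept through ASO arrays where it was brighter. The lower PBS values of Timp1 lay near the detection limit. Timp1, an inhibitor of matrix metalloproteases that reactive astrocytes also make, measured 4.35, 4.18, 4.95 and 3.58 with control ASO, against 3.59, 3.14, 2.67 and 2.92 with PBS, a difference of 1.18 (SE 0.54, adjusted p = 0.73), and Fn1, fibronectin, measured 4.17, 4.53, 4.40 and 4.90 with control ASO, against 4.12, 3.86, 4.17 and 3.27 with PBS. Reactive astrocyte genes were above 0 in 15 of 16 measured, with a median of 0.23. Gfap, the intermediate filament that rises in gliosis, measured 10.17, 9.89, 10.59 and 9.71 with control ASO, against 9.73, 9.75, 10.30 and 9.55 with PBS, and its interval of −0.42 to 0.93 spans 0. Sphk1, a sphingosine kinase, measured 5.81, 6.21, 5.93 and 6.18 with control ASO, against 5.51, 5.50, 5.84 and 5.81 with PBS, a difference of 0.37 (SE 0.13, adjusted p = 0.707). Astrocyte markers had a median of 0.08 over 14 genes and oligodendrocyte markers one of 0.14 over 13, with 0 of either at an unadjusted p under 0.05. Oligodendrocyte precursor markers had a median of −0.18 over 7 genes, 3 of them above 0, and also 0 at an unadjusted p under 0.05. Without single mice the 3 endothelial genes became 1 (PBS mouse 3 or control ASO mouse 1) and the 3 matrix genes 1 (control ASO mouse 2), and the matrix genes became 0 with either marker level as a covariate. Rora, a nuclear receptor strong in thalamus and here on the list of neighbouring regions, measured 7.48, 7.36, 7.45 and 7.53 with control ASO, against 6.97, 6.93, 7.01 and 6.74 with PBS, with all 4 control ASO mice alike and a difference of 0.54 (SE 0.12, adjusted p = 0.525). Prkcd, a thalamic kinase on the same list, was lower at an unadjusted p under 0.05, with 6.05, 6.20, 6.51 and 5.49 with control ASO, against 6.30, 6.51, 6.69 and 6.54 with PBS.

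Most stress and growth programmes had medians near that of all genes, 0.01. The median was 0.0 over 17 p53 targets, 0.01 over 17 genes of the unfolded protein and integrated stress response, 0.06 over 14 apoptosis genes, 0.07 over 8 cell cycle genes and −0.02 over 15 respiratory chain genes, and in these 5 lists 1 gene in all was at an unadjusted p under 0.05, of the respiratory chain, and it was lower. Heat shock and oxidative stress genes had a median of 0.11 over 18, with 14 above 0 and 1 lower at an unadjusted p under 0.05. Of the list of matrin-type zinc finger genes, p53 and huntingtin, 9 were measured, without p53, since no probe carried the symbol Trp53. Of these 9, 1 was lower at an unadjusted p under 0.05. It was Zfp346, a double-stranded RNA-binding protein, which measured 5.51, 5.57, 5.54 and 5.57 with control ASO, against 6.12, 5.69, 5.93 and 6.04 with PBS, a difference of −0.40 (SE 0.11, adjusted p = 0.6).

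**Figure D5:**
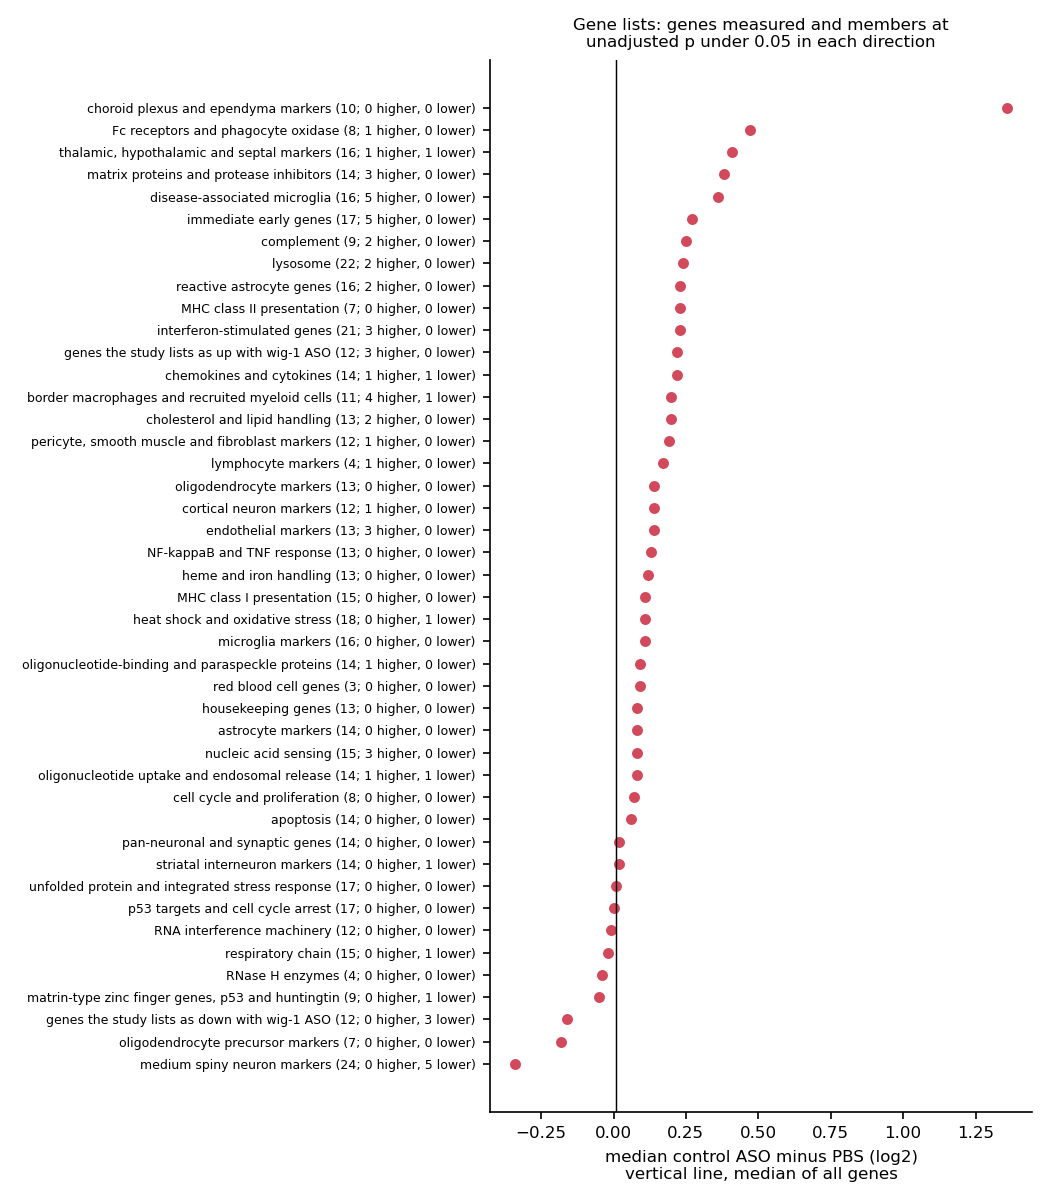
Median control ASO minus PBS difference (log2, horizontal axis) of the measured genes of each gene list (rows), with the number measured and the number at an unadjusted p under 0.05 in each direction beside its name, and a vertical line at the median over all genes, 0.01. The choroid plexus list, at 1.36, is farthest to the right and the medium spiny neuron list, at −0.34, farthest to the left.

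The wig-1 ASO shares the chemistry of the control ASO, so setting the groups side by side shows where the control ASO mice stood apart from mice that also received an oligonucleotide. The contrast of wig-1 ASO with control ASO called 162 of 17188 probes at an adjusted p under 0.05, 109 higher (0.634%) and 53 lower (0.308%), and over genes 0.788% higher and 0.289% lower. This number rests on single mice, as leaving out any 1 of the 12 arrays moved it by more than 1.5 times, to between 5 (without wig-1 ASO mouse 2 or control ASO mouse 2) and 545 (without wig-1 ASO mouse 1). Zmat3 differed by −1.89 (adjusted p = 0.00278). Several phagocyte genes were higher with wig-1 ASO than with control ASO, but not in each mouse. Wig-1 ASO mouse 1 had a mean deviation from PBS of 0.57 for disease-associated microglia and 0.41 for the lysosome. Both lay within the control ASO range, and wig-1 ASO mice 2, 3 and 4 lay above it for both lists. Wfdc17 measured 6.78, 7.44, 7.16 and 7.22 with wig-1 ASO, against 3.57, 3.67, 3.59 and 3.38 with control ASO, and rose by 3.60 (adjusted p = 0.00278). C1qa rose by 1.59 (adjusted p = 0.0335), C1qb by 1.46 (adjusted p = 0.0473) and C1qc by 1.73 (adjusted p = 0.0392) with wig-1 ASO relative to control ASO. Of the measured genes, 4 of 9 in the complement list, 4 of 16 microglia markers, 3 of 8 Fc receptor and oxidase genes, 4 of 21 interferon-stimulated genes and 1 of 22 lysosomal genes (Hexa, 1.0, adjusted p = 0.042) were higher with wig-1 ASO than with control ASO at an adjusted p under 0.05, and 0 genes of these lists were lower. The 4 complement genes became 0 without any 1 of wig-1 ASO mice 2, 3 and 4 or control ASO mice 1, 2 and 4, and 1 without PBS mouse 1 or 3. Gfap rose by 1.51 (adjusted p = 0.0498). For the 16 disease-associated microglia genes 0 passed, although the median was 0.75, and Gpnmb measured 6.32, 10.98, 10.26 and 8.39 with wig-1 ASO, 6.14, 6.71, 7.33 and 5.25 with control ASO and 4.64, 5.22, 4.67 and 3.13 with PBS.

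Both contrasts against PBS use the same 4 PBS arrays, so their values are given side by side only. For Gpnmb the difference from PBS was 4.57 with wig-1 ASO and 1.94 with control ASO, for Lgals3 3.76 and 1.55, for C1qa 2.18 and 0.60, and for Ctsd 1.87 and 0.99. For genes of medium spiny neurons the 2 values were closer: −0.76 with wig-1 ASO and −0.60 with control ASO for Gnal, −0.73 and −0.51 for Drd2. They were nearly equal for Cldn5 (0.39 with wig-1 ASO and 0.42 with control ASO) and Rora (0.53 and 0.54). For the immediate early genes Fos, Arc and Egr2 the differences from PBS had opposite signs. Fos differed from PBS by −0.06 with wig-1 ASO and 0.64 with control ASO, Arc by −0.17 and 0.72, and Egr2 by −0.24 and 0.70. Set directly against each other, wig-1 ASO minus control ASO was −0.69 for Fos (adjusted p = 0.0681), −0.89 for Arc (adjusted p = 0.153) and −0.94 for Egr2 (adjusted p = 0.138), and 0 of the 17 genes passed. Sphk1 did pass. It measured 4.75, 4.99, 4.73 and 4.84 with wig-1 ASO, against 5.81, 6.21, 5.93 and 6.18 with control ASO, a difference of −1.20 (adjusted p = 0.00427).

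The study drew up lists of genes that differ after wig-1 ASO on these samples, which makes them no independent evidence of a direction, and their values with control ASO are given as a description. Of the 12 measured genes listed as down, 3 were lower with control ASO than with PBS at an unadjusted p under 0.05 (Itgbl1, B3galt1 and Robo2, background 3.16%), and the median was −0.16. Itgbl1, a secreted protein with integrin-like repeats, measured 4.85, 4.75, 4.73 and 5.03 with control ASO, against 5.10, 5.21, 5.41 and 5.20 with PBS, a difference of −0.39 (SE 0.13, adjusted p = 0.685), where wig-1 ASO minus PBS was −1.09. Robo2, an axon guidance receptor, measured 6.38, 6.29, 5.84 and 6.08 with control ASO, against 6.63, 6.33, 6.54 and 6.48 with PBS, a difference of −0.35 (SE 0.15, adjusted p = 0.713), where wig-1 ASO minus PBS was −0.79. B3galt1, a galactosyltransferase, differed by −0.33 (SE 0.13, adjusted p = 0.712). Of the 12 measured genes listed as up, 3 were higher with control ASO at an unadjusted p under 0.05 (Gpnmb, Nans and Abcc3, background 3.13%), with a median of 0.22. Nans, the sialic acid synthase, measured 5.33, 5.47, 5.45 and 5.43 with control ASO, against 5.06, 5.10, 5.03 and 4.91 with PBS, a difference of 0.39 (SE 0.09, adjusted p = 0.525), and wig-1 ASO minus PBS was 0.75. Abcc3, an efflux transporter, was detected on 1 control ASO array and 0 PBS arrays, so it was kept through wig-1 ASO arrays.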

How the data were processed

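Striatal RNA of 12 BACHD mice was hybridised to Illumina MouseWG-6 v2 arrays, 1 mouse per array, and groups came from the treatment labels. For 45281 probes per array, the authors deposited a linear intensity with its detection p-value, and also a log2 value, which departs from log2 of the intensity by at most 5.6e-09. All 12 deposited columns hold the same sorted intensities, from 2.0 to 14145, which is what quantile normalization leaves, so log2 intensity was used as it stands. The methods name lumi and siggenes, with no formula or lumi steps. Slide and chip positions were not in the sources used here.

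A probe was kept (17188 were) if its detection p was under 0.01 on 4 or more of the 12 arrays. The platform annotation gives 14926 of them 1 gene symbol, which covers 10031 genes, each represented by its probe of highest mean signal. The 3 groups were fitted in 1 linear model (limma 3.58.1, R 4.3.3, 9 residual degrees of freedom), with Benjamini-Hochberg adjustment over the kept probes. Single genes were also compared by the exact two-sided permutation test over 70 arrangements. A SAM test was rebuilt, and its match to the study's own test is not known. The fits were tested on simulated data. Named genes are the 12 largest differences each way at an unadjusted p under 0.05 with groups that do not overlap, up to 4 members of smallest p in each of 44 gene lists, all RNase H genes, Zmat3, Htt and Gpnmb, Trp53 (which no probe names), and others said to be chosen after their values were seen. Cell type markers shown for tissue content were listed for that purpose. The members and lists were chosen with earlier results of these data known. Array number, 4 per group, limits the precision. The p-values of the fit rest on the spread within all 3 groups, wig-1 ASO mice included. Promoter windows came from RefSeq (GRCm38.p6), without those of chromosome 18. Alternatives covered filters, scaling, array weights, the variance model, an offset of 16, the replicate number as a block, each array left out, and tissue markers as covariates.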

Additional observations from a re-analysis of the deposited data

Results flagged for a closer look

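In 13 of the 204 groups of 4 mice formed by 102 named genes (6.37%), 1 mouse lay so far from the other 3 that its gap took up more of the group's range than Dixon's 95% limit for 4 values, which chance passes in about 5.0% of groups.

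Among control ASO mice, number 3 was the one most often apart. It was the highest for C1qc at a log2 signal of 8.19, and the lowest for Fos at 7.46, for Htr1f at 1.51 and for Htt at 2.24. Control ASO mouse 4 was the lowest for Tmem119 at 5.83 and for Rsad2 at 3.60, and the highest for Kcnj8 at 3.21. Control ASO mouse 2 was the lowest for Myd88 at 5.11, and control ASO mouse 1 the highest for 3300002I08Rik at 2.25, where no control ASO array detected that transcript.

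Among PBS mice, number 2 was the lowest for C1qc at 6.55 and the highest for Chat at 7.22. PBS mouse 3 was the lowest for Nr4a2 at 4.06 and for Slc17a6 at 7.46. Of the genes with these gaps, Fos, C1qc, Myd88, Nr4a2, Chat, Htr1f, Slc17a6 and 3300002I08Rik are among those whose groups do not overlap.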

How the results depend on the processing

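The count of probes at an adjusted p under 0.05 was 0 under all alternatives run except 2. With the replicate block it was 1 (Apobr, a log2 difference of 1.66, adjusted p = 0.046), and with each array left out in turn it ranged from 0 to 1, the 1 being an unnamed probe without PBS replicate 1. The count past the study's limits was 1 with the replicate block and 0 to 1 with each array left out. Same-numbered control ASO and PBS mice had correlations of −0.09, 0.00, −0.06 and −0.10 between their deviations, which showed no pairing by number. Wig-1 ASO mice were left out of this check, and whether same-numbered arrays shared a slide was not tested. The count at an unadjusted p under 0.05 was 2596 with no filter on dim probes, among all probes, and 840 to 1328 with arrays left out. Groups did not overlap for 828 probes in the full comparison, for 1745 with no filter, for 2545 with control ASO mice 2 and 4 alone and for 1158 to 1555 with arrays left out, where fewer mice make separation easier. Between wig-1 ASO and control ASO, 162 probes became 23 with the replicate block, and 5 to 545 with arrays left out.

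Control ASO minus PBS reversed its sign for 10 genes that were near 0 or wide in error, none of them at an unadjusted p under 0.05. With the thalamic, hypothalamic and septal covariate it was −0.05 for Rnaseh2c, −0.04 for Csf1r and −0.01 for Ttr. With the choroid plexus covariate it was −0.08 for Rnaseh2c, −0.42 for Ttr, which is on the covariate's own list, and −0.01 for Egr4. With control ASO mice 2 and 4 alone it was −0.03 for Gfap, −0.08 for Csf1r, −0.13 for Tmem119 and 0.22 for Npas4. With array weights it was −0.07 for Rnaseh2c and 0.02 for Npas4, and with an offset of 16 it was −0.01 for Fosb. With arrays left out in turn it ranged from −0.19 to 0.06 for Rnaseh1, −0.11 to 0.13 for Rnaseh2c, −0.13 to 0.94 for Htt, −0.01 to 0.20 for Csf1r, −0.02 to 0.18 for Tmem119, −0.18 to 0.15 for Fosb, −0.08 to 0.09 for Egr4 and −0.18 to 0.07 for Npas4. The cause of these moves was not tested. Signals near the detection limit, where most of the genes with the largest differences lie, limit how far a fold can be read.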
